A study of Orbilia oligospora with 12 samples.

Results

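The change over 48 h with nematode extract was compared between the strain labelled ΔAorlmA and the wild type (WT) of Arthrobotrys oligospora (also named Orbilia oligospora), a soil fungus that captures nematodes in adhesive networks of hyphae. The quantity tested was the interaction, which is the log2 change from 0 h to 48 h in the strain labelled ΔAorlmA minus the same change in WT, so that a positive value means that the response was higher in the strain labelled ΔAorlmA. All 12 of the 12 RNA-seq libraries entered, 3 in each of 4 groups: labelled ΔAorlmA at 48 h, labelled ΔAorlmA at 0 h, WT at 48 h and WT at 0 h. Cultures were grown for 5 days at 28 °C on agar of potato and dextrose, and the label for treatment, an extract of nematodes that brings on trap formation, is the same at both times. The growth protocol names another mutant, ΔAosnf1, in place of ΔAorlmA. How many transformants stand behind the label was not given in the sources used here. The design text calls the replicates biological without saying how the cultures were kept apart, so the p-values reflect the spread among these libraries and that spread may be technical. In bulk RNA, fewer cells of a kind and less RNA per cell cannot be told apart.

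Rlm1-type proteins are MADS-box transcription factors. In Saccharomyces cerevisiae, Rlm1 acts at the end of the cell wall integrity pathway, where a MAP kinase cascade activates genes for building and repairing the wall. A nematode-trapping fungus grows as a saprotroph until it senses nematodes and then forms traps. An unequal response can go with levels that differ at the start, at the end or at both, and the genes were therefore sorted by whether the strains already differed at 0 h.

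The gene that the library titles point to, AOL_s00078g125, a MADS-box gene annotated as SMP1 (a relative of Rlm1 in yeast), had 109, 96.9 and 87.3 TPM in the 48 h libraries and 72.2, 116 and 164 TPM in those of 0 h in the libraries labelled ΔAorlmA. Its WT levels were 32.3, 45.1 and 27.9 TPM at 48 h, beside 38.5, 39.99 and 30.2 TPM at 0 h. Every library labelled ΔAorlmA lay above every WT library, so its transcript was not lost there, and the libraries are called by their label throughout. If the labels of the strains were exchanged, every strain difference and interaction given here would have the opposite sign. Its strain difference was 1.47 at 48 h and 1.60 at 0 h on the log2 scale (limma adjusted p = 0.0092 and 0.00298), and its interaction was -0.13 (standard error, SE, 0.43; adjusted p = 0.886). The other MADS-box genes also did not pass for the interaction. AOL_s00112g128, annotated as MCM1, had an estimate of -0.53 (adjusted p = 0.286), and AOL_s00088g15 had 1.02 (adjusted p = 0.182).

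Libraries held 48.5 to 61.1 M clean reads, and 8450 to 9177 genes reached 1 TPM (a transcript level scaled for gene length and library total) in each. The first principal component carried 40.7% of the variance and the second 32.5%. The first library labelled ΔAorlmA at 48 h had a mean r of 0.932 with its own group. Its closest library outside that group was a WT library of 48 h (r = 0.944). Its r with the WT libraries of 48 h was 0.932, 0.944 and 0.932 (replicates 1, 2 and 3). By r it lay about as near to them as to its own group. On the second component it stood at 10.8, against 51.5 and 58.1 for the other libraries of its group. The first one labelled ΔAorlmA at 0 h was closest to a library labelled ΔAorlmA at 48 h (r = 0.924, against a mean of 0.903 with its own group). On the first component that library stood at 4.6, against 64.3 and 44.9 for the other libraries labelled ΔAorlmA at 0 h. The third WT library of 0 h stood apart on the second component. No pair of libraries held identical values.

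Of 9355 genes tested (at least 1 TPM in at least 3 libraries), 414 responded differently in the strains at an adjusted p below 0.05, which is 4.43% of the genes tested (limma on log2(TPM + 1), Benjamini-Hochberg adjustment over all genes tested). The response was higher in the strain labelled ΔAorlmA for 302 genes (3.23%) and lower for 112 genes (1.2%). All 414 differed by at least 2-fold and 247 by at least 4-fold, and the smallest estimate called was 1.15 on the log2 scale. WT responded with more genes: 2009 changed over 48 h in the strain labelled ΔAorlmA (21.5% of those tested), against 4338 in WT (46.4%). As a description of the genes so chosen, 256 of the 302 with a higher response had their highest mean level in WT at 0 h and 45 in the strain labelled ΔAorlmA at 48 h. Of the 112 with a lower response, 19 were highest in the strain labelled ΔAorlmA at 0 h and 91 in WT at 48 h. The interaction itself favours these groups as the highest, so the counts are no further result.

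The same libraries give the split by response. Of the 414 genes, 218 fell in WT without a call in the strain labelled ΔAorlmA, and 71 rose in WT without one. Among all genes tested these classes held 2034 and 983 genes, so a fall in WT alone was also the larger class there. Another 40 rose and 8 fell in the strain labelled ΔAorlmA without a call in WT (529 and 159 among all genes tested). Both strains changed in the same direction for 59 genes but by unequal amounts, and 18 genes changed in opposite directions. Among all genes tested these classes held 1303 and 18 genes. In 177 of the 414 genes the 48 h and 0 h levels did not overlap in the strain labelled ΔAorlmA, and in 382 they did not overlap in WT. Since the interaction is built from these same groups, choosing genes by it favours such a lack of overlap. No matching count over all genes tested is given here, so these counts are a description and no further result.

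**Figure D1:**
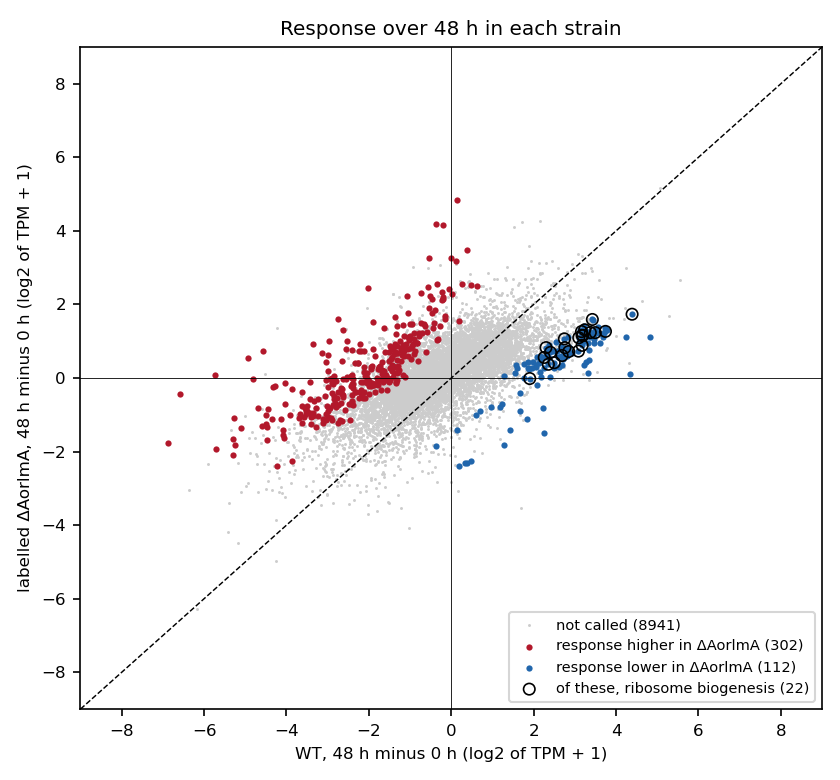
Change over 48 h (log2 of TPM + 1) of each of 9355 genes in the strain labelled ΔAorlmA (vertical axis) against WT (horizontal axis), with equal responses on the dashed line. The 302 genes called with a higher response in the strain labelled ΔAorlmA lie above the line and mostly left of 0, the 112 called with a lower response lie below it, and 22 of these, ringed, are ribosome biogenesis genes.

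The number of calls moved widely with single libraries. Without each library labelled ΔAorlmA at 48 h in turn it was 876, 209 and 98 (replicates 1, 2 and 3), and at 0 h it was 509, 675 and 106. Without each WT library of 48 h it was 240, 47 and 17, and of 0 h 238, 34 and 130. Without the first libraries labelled ΔAorlmA of both times it was 1349, which held 388 of the 414. All 414 genes kept their sign in each of 23 other settings that tested them. They also had an unadjusted p below 0.05 in each of the 12 fits without 1 library. In the fit of all libraries 2307 genes had an unadjusted p below 0.05, which is no matching count. The 414 were chosen by a low p from these same libraries, which favours both results, so neither is further support. The call itself was kept in all 23 settings for 14 genes, 13 with a higher and 1 with a lower response. The median gene had an interaction of 0.34, which became -0.03 with median-of-ratios scaling and 0.00 with quantile normalization, and the split moved from 302 higher and 112 lower to 128 and 215 under median-of-ratios scaling and 115 and 215 under quantile normalization.

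In most of the genes with unequal responses the strains already differed at 0 h. There 3990 genes differed between the strains (42.7% of those tested), 830 higher (8.87%) and 3160 lower in the strain labelled ΔAorlmA, and 351 of the 414 interaction genes were among them. This split depended on the scaling: 1341 were higher and 1033 lower with median-of-ratios scaling, and 1249 and 1568 with quantile normalization. The interaction and the difference at 0 h share the 0 h libraries, so an error in those libraries enters both. In 314 of the 351 the strain difference was smaller at 48 h than at 0 h, with a median size of 0.59 at 48 h and 1.57 at 0 h on the log2 scale. For 283 of the 351 no strain difference was called at 48 h, for 60 it was called in the opposite direction, and for 8 in the same direction. Of the 1160 genes that differed in the same direction at both times, the interaction was called for those 8 alone.

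**Figure D2:**
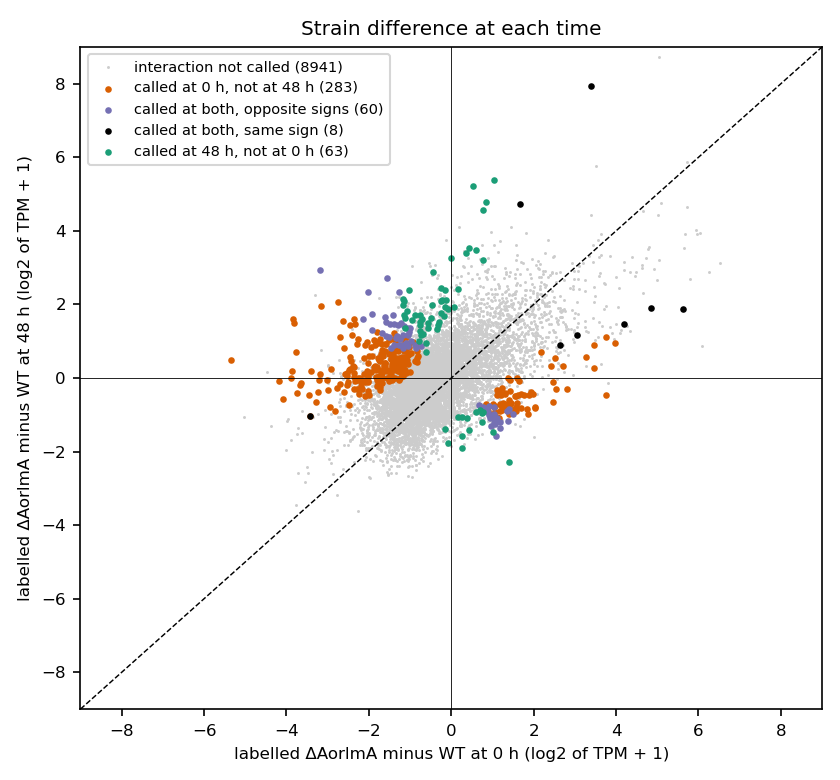
Strain difference, labelled ΔAorlmA minus WT, at 48 h (vertical axis) against 0 h (horizontal axis) on log2(TPM + 1) for 9355 genes. Of the 414 genes called for the interaction, 283 were called at 0 h and not at 48 h, 60 were called in opposite directions at the 2 times, 8 were called in the same direction at both, and 63 were called at 48 h and not at 0 h.

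Sugar uptake and oxidation genes were among those that were high in WT at 0 h and low in every other group. AOL_s00054g267, annotated as the glucose transporter mfs1, which would carry glucose into the cell, had 0.71, 1.35 and 0.94 TPM in the 48 h libraries and 1.12, 2.73 and 0.61 TPM in those of 0 h in the strain labelled ΔAorlmA. Its WT levels were 1.29, 1.12 and 0.86 TPM at 48 h, beside 50.2, 33.5 and 41.1 TPM at 0 h. WT at 0 h stood above all 9 other libraries without overlap. The gene fell in WT by 4.34 on the log2 scale, its estimate in the strain labelled ΔAorlmA was -0.24 (adjusted p = 0.619), and the interaction was 4.10 (SE 0.46; adjusted p = 0.00306), kept in all 23 settings. AOL_s00188g307, a FAD-dependent oxidase whose closest Swiss-Prot entry is 6-hydroxy-D-nicotine oxidase, had 12.5, 12.6 and 21.1 TPM in the 48 h libraries and 4.08, 41.1 and 14.97 TPM in those of 0 h in the strain labelled ΔAorlmA. In WT it had 9.78, 8.32 and 13.9 TPM at 48 h, beside 376, 673 and 883 TPM at 0 h. The WT level at 0 h was again above all others, and the interaction of 5.82 (SE 0.84; adjusted p = 0.011) was also kept throughout. AOL_s00169g233, an alpha-glucosidase, which releases glucose from starch-like sugars, was at most 1.32 TPM in the libraries labelled ΔAorlmA. WT had 0.78, 0.42 and 0.72 TPM at 48 h, beside 7.89, 5.50 and 7.48 TPM at 0 h, with an interaction of 2.68 (adjusted p = 0.011), kept in all settings. It passed the filter of 1 TPM in 3 libraries only through WT at 0 h. Its p and its calls in other settings are therefore no support apart from that choice.

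Among genes for defence against oxygen and nitrogen radicals, the flavohemoprotein AOL_s00043g392, a type of enzyme that removes nitric oxide, had 114, 29.9 and 23.1 TPM in the 48 h libraries and 65.99, 202 and 60.1 TPM in those of 0 h in the strain labelled ΔAorlmA. In WT it had 21.4, 17.5 and 7.29 TPM at 48 h, beside 847, 446 and 521 TPM at 0 h. It fell in WT, the levels in the strain labelled ΔAorlmA overlapped between the times, and the interaction was 4.18 (adjusted p = 0.0243). Mitochondrial superoxide dismutase, AOL_s00007g292, had 16.2, 12.4 and 17.4 TPM in the 48 h libraries and 14.9, 69.9 and 28.4 TPM in those of 0 h in the strain labelled ΔAorlmA. Its WT levels were 14.96, 10.4 and 11.3 TPM at 48 h, beside 169, 113 and 236 TPM at 0 h. Its interaction was 2.68 (adjusted p = 0.039). That call was lost under both other scalings. Over the 74 oxidative stress and glutathione genes tested superoxide dismutase was the single call (1.35%, against 4.43% of all genes tested), while 8 fell over 48 h in the strain labelled ΔAorlmA and 38 fell in WT (8.52% and 28.7% of all genes tested). Without the first libraries labelled ΔAorlmA, 12 were called higher and 1 lower (10.2% and 4.21% of all genes tested in that fit). The list's median interaction of 0.83 stayed above 0 under both scalings (0.48 and 0.57).

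Enzymes and carriers of central metabolism were also called. Fructose-bisphosphate aldolase, AOL_s00004g332, the glycolytic enzyme that splits the 6-carbon sugar, was singled out after its values were seen. It had 449, 307 and 281 TPM in the 48 h libraries and 492, 863 and 816 TPM in those of 0 h in the strain labelled ΔAorlmA. WT stood at 201, 206 and 148 TPM at 48 h, beside 1394, 1257 and 1761 TPM at 0 h. It fell in both strains, by 1.05 on the log2 scale in the strain labelled ΔAorlmA and by 2.99 in WT (interaction 1.94, adjusted p = 0.0255, lost under median-of-ratios scaling). Pyruvate dehydrogenase kinase, AOL_s00081g319, which switches off the entry of pyruvate into the citric acid cycle, had 42.3, 67.6 and 31.96 TPM in the 48 h libraries and 49.2, 27.1 and 13.5 TPM in those of 0 h in the strain labelled ΔAorlmA. WT values were 53.4, 49.4 and 38.4 TPM at 48 h, beside 251, 228 and 279.5 TPM at 0 h. It fell in WT and was not called in the strain labelled ΔAorlmA (interaction 3.16, adjusted p = 0.0195). AOL_s00215g29, a mitochondrial 2-oxoglutarate/malate carrier, had an interaction of 3.88 (adjusted p = 0.0271), with 0.98, 2.77 and 3.04 TPM in the 48 h libraries and 0.64, 11.8 and 6.85 TPM in those of 0 h in the strain labelled ΔAorlmA. WT levels came to 2.84, 2.11 and 1.59 TPM at 48 h, beside 84.3, 90.2 and 67.7 TPM at 0 h. WT at 0 h was again the high group.

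Several genes of unclear role had large estimates. AOL_s00054g904, with a peptidase inhibitor I66 domain, had 67.6, 57.9 and 7.74 TPM in the 48 h libraries and 8.46, 110.3 and 82.7 TPM in those of 0 h in the strain labelled ΔAorlmA. In WT the levels were 2.16, 6.67 and 2.26 TPM at 48 h, beside 179, 476 and 792 TPM at 0 h. Its interaction was 6.13 with an SE of 1.34 (adjusted p = 0.0284), and the libraries labelled ΔAorlmA were widely spread at both times. AOL_s00210g255, with a VHL domain, was abundant, with 1123, 1599 and 277 TPM in the 48 h libraries and 319, 1326 and 1224 TPM in those of 0 h in the strain labelled ΔAorlmA. WT had 133, 208 and 241 TPM at 48 h, beside 2006, 9788 and 7874 TPM at 0 h (interaction 4.81, adjusted p = 0.0271). The SET domain gene AOL_s00081g77 fell in both strains, with 16.5, 18.1 and 12.9 TPM in the 48 h libraries and 55.4, 56.5 and 62.8 TPM in those of 0 h in the strain labelled ΔAorlmA. In WT it had 8.28, 12.4 and 5.89 TPM at 48 h, beside 218, 634 and 341 TPM at 0 h. No library of one time overlapped the other in either strain, and the interaction of 3.43 (adjusted p = 0.0138) was kept in all settings. The unannotated gene AOL_s00079g106 had an interaction of 5.46 (adjusted p = 0.0189), also kept, with 18.8, 36.4 and 10.8 TPM in the 48 h libraries and 3.70, 36.6 and 15.3 TPM in those of 0 h in the strain labelled ΔAorlmA. Its WT levels were 4.26, 5.13 and 8.36 TPM at 48 h, beside 158, 213 and 248 TPM at 0 h.

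A smaller group crossed over: 60 genes differed between the strains in one direction at 0 h and in the other at 48 h, 37 of them lower and 23 higher at 0 h in the strain labelled ΔAorlmA. AOL_s00043g257, with an RGS domain, a domain that shortens the active state of G protein alpha subunits, had 22.2, 98.2 and 57.2 TPM in the 48 h libraries and 16.8, 17.5 and 13.3 TPM in those of 0 h in the strain labelled ΔAorlmA. WT had 8.97, 10.6 and 7.92 TPM at 48 h, beside 75.8, 73.3 and 53.5 TPM at 0 h. The strain labelled ΔAorlmA was below WT in every library of 0 h and above it in every library of 48 h. The gene rose by 1.61 in the strain labelled ΔAorlmA and fell by 2.74 in WT, and the interaction was 4.35 (SE 0.60; adjusted p = 0.011), kept in all 23 settings. AOL_s00054g163, annotated as a SNF-related protein kinase, had 13.1, 11.9 and 22.97 TPM in the 48 h libraries and 5.68, 15.8 and 9.50 TPM in those of 0 h in the strain labelled ΔAorlmA. WT stood at 3.19, 1.74 and 1.85 TPM at 48 h, beside 25.2, 23.4 and 25.1 TPM at 0 h. It fell in WT (log2 change -3.00) and gave 0.63 with an adjusted p of 0.229 in the strain labelled ΔAorlmA (interaction 3.63, adjusted p = 0.011, kept in all settings).

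Transport and secondary metabolism supplied further genes that crossed over by rising in the strain labelled ΔAorlmA. AOL_s00054g285, an OPT family transporter whose closest entry is the plant metal-nicotianamine transporter YSL17, had 1712, 1435 and 1488 TPM in the 48 h libraries and 428, 204 and 209 TPM in those of 0 h in the strain labelled ΔAorlmA. WT values were 866, 975 and 668 TPM at 48 h, beside 729, 568 and 796 TPM at 0 h. It rose by 2.54 in the strain labelled ΔAorlmA, its WT levels overlapped between the times with an estimate of 0.26 (adjusted p = 0.502), and the interaction was 2.29 (adjusted p = 0.021). AOL_s00079g255, a cytochrome P450 of the FCK2 type, had 21.5, 54.6 and 37.7 TPM in the 48 h libraries and 4.02, 7.28 and 4.67 TPM in those of 0 h in the strain labelled ΔAorlmA. WT levels came to 23.9, 11.96 and 10.7 TPM at 48 h, beside 17.4, 16.4 and 23.6 TPM at 0 h. Its interaction was 2.92 (adjusted p = 0.0213). Acetyl-CoA synthetase, AOL_s00081g301, which makes acetyl-CoA from acetate, was chosen after its values were seen. It had 128, 184 and 98.04 TPM in the 48 h libraries and 39.2, 26.8 and 24.2 TPM in those of 0 h in the strain labelled ΔAorlmA. In WT the levels were 50.2, 86.5 and 30.1 TPM at 48 h, beside 60.4, 58.9 and 60.8 TPM at 0 h. It rose in the strain labelled ΔAorlmA (interaction 2.37, adjusted p = 0.0271).

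The ricin-type lectin gene AOL_s00193g183 was 1 of the 18 genes whose called changes ran in opposite directions in the strains. Lectins bind sugars, and this protein also holds an I66 peptidase inhibitor domain. It had 6.35, 4 and 7.23 TPM in the 48 h libraries and 0, 0.87 and 0 TPM in those of 0 h in the strain labelled ΔAorlmA, where 2 of the 3 libraries of 0 h listed it at 0. WT had 0.97, 5.78 and 4.28 TPM at 48 h, beside 10.4, 23.4 and 16.2 TPM at 0 h. It rose in the strain labelled ΔAorlmA and fell in WT without overlap between the times in either (interaction 4.48, adjusted p = 0.011, kept in all settings).

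**Figure D3:**
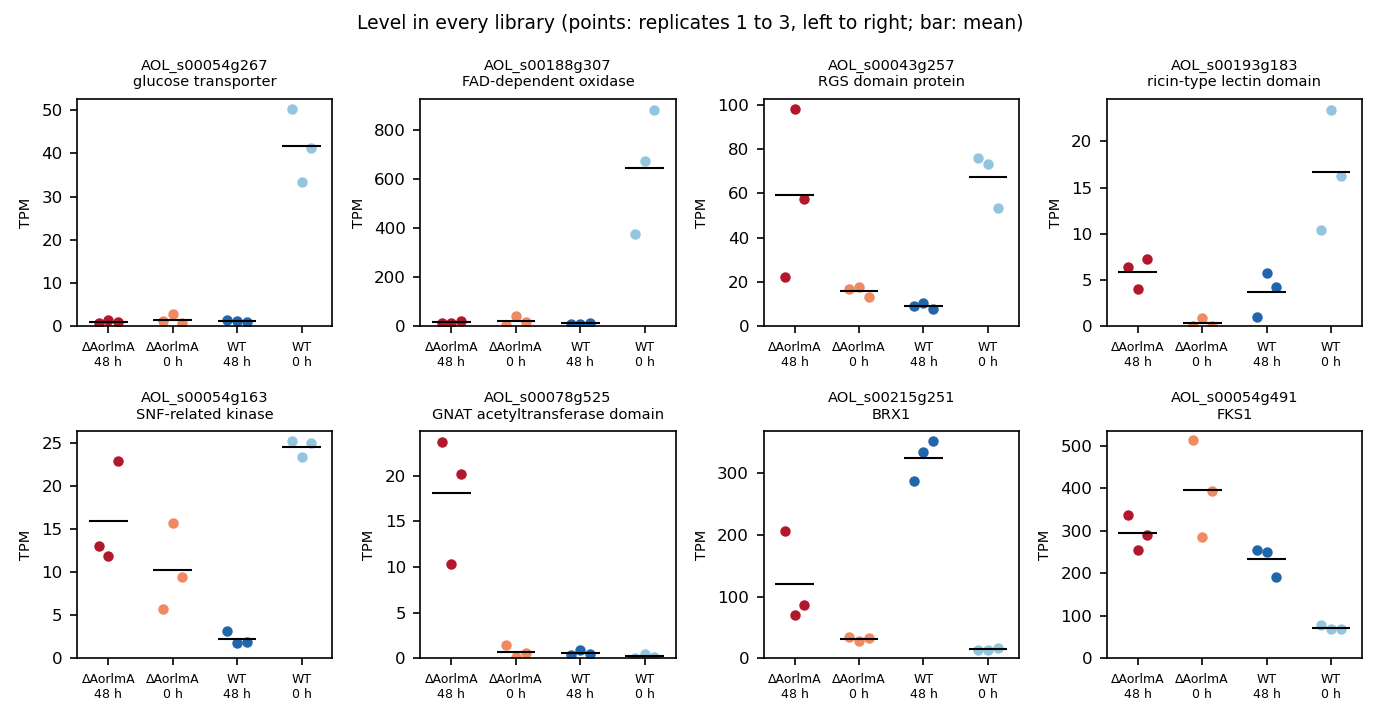
TPM of 8 genes in every library, with points for replicates 1 to 3 and a bar for the mean of each group; each vertical axis starts at 0. The glucose transporter and the FAD-dependent oxidase are high in WT at 0 h alone, the RGS domain gene and the SNF-related kinase cross over, the acetyltransferase gene is high in the strain labelled ΔAorlmA at 48 h alone, BRX1 is highest in WT at 48 h and FKS1 is lowest in WT at 0 h.

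Many genes for making ribosomes rose less in the strain labelled ΔAorlmA than in WT. Of 69 ribosome biogenesis genes tested, 22 were called with a lower response in the strain labelled ΔAorlmA and 0 with a higher one, which is 31.9% of the list (1.2% of all genes tested had a lower response), and these 22 made up 19.6% of the 112 genes with a lower response. Their proteins cut, modify and fold ribosomal RNA in the nucleolus and load the ribosomal proteins onto it. Over the list, 35 genes rose in the strain labelled ΔAorlmA and 63 rose in WT (13% and 17.6% of all genes tested rose). The median change over 48 h was 1.00 in the strain labelled ΔAorlmA and 2.50 in WT on the log2 scale, and the median interaction was -1.55 (0.34 over all genes tested). By calls at each time, at 48 h 0 of the 69 were higher there and 31 lower (9.2% and 14.7% of all genes tested), and at 0 h 26 were higher and 3 lower (8.87% and 33.8%). The 31 lower genes at 48 h became 56, 5 and 1 without libraries 1, 2 and 3 labelled ΔAorlmA at 48 h, and 11, 11 and 6 without the WT libraries of 48 h.

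Summed over the list, the level was 9368, 4378 and 5072 TPM in the 48 h libraries and 3421, 3183 and 3615 TPM in the 0 h libraries in the strain labelled ΔAorlmA. The WT sums were 11019, 10612 and 12020.4 TPM after 48 h and 2419, 2020.2 and 2209 TPM at 0 h. The sums of the 4 groups did not overlap, and the first library labelled ΔAorlmA at 48 h lay nearer to the WT libraries of 48 h than to the other libraries of its own group. Without the first libraries labelled ΔAorlmA of both times, 53 of the 69 genes were called lower (4.21% of all genes tested in that fit). The count was 39 with median-of-ratios scaling and 41 with quantile normalization, all with a lower response. Leaving out 1 library gave 51, 11 and 3 calls without libraries 1, 2 and 3 labelled ΔAorlmA at 48 h, 18, 35 and 6 without those of 0 h, 9, 2 and 0 without the WT libraries of 48 h, and 11, 0 and 8 without those of 0 h. The median interaction lay between -1.95 and -1.33 in all 12 of these fits.

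**Figure D4:**
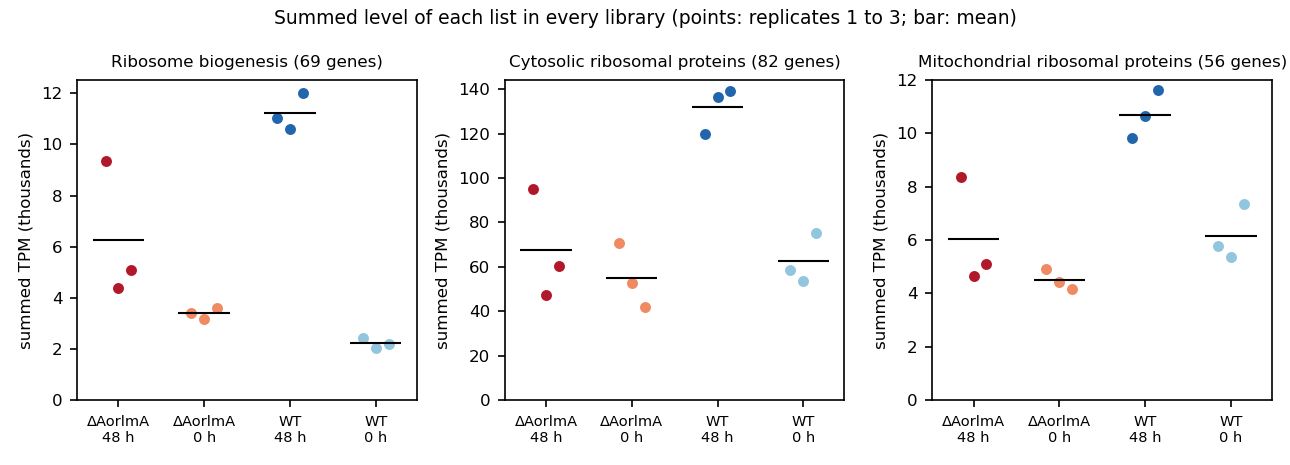
Summed TPM of 3 gene lists in every library, with points for replicates 1 to 3 and a bar for the mean of each group. For ribosome biogenesis the sums at 48 h are 4378 to 9368 TPM in the strain labelled ΔAorlmA and 10612 to 12020.4 TPM in WT, while at 0 h the strain labelled ΔAorlmA is the higher one; in all 3 lists the first library labelled ΔAorlmA at 48 h is the highest of its strain.

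BRX1, AOL_s00215g251, which in S. cerevisiae is needed to assemble the large ribosomal subunit, had 207, 69.9 and 86.2 TPM in the 48 h libraries and 34.1, 28.4 and 32.8 TPM in those of 0 h in the strain labelled ΔAorlmA. WT had 288, 335 and 351 TPM at 48 h, beside 14.1, 13.4 and 16 TPM at 0 h. It rose in both strains without overlap, by 1.74 in the strain labelled ΔAorlmA and by 4.39 in WT, and the strains crossed between the times (interaction -2.65, SE 0.48, adjusted p = 0.0195). NOP16, AOL_s00004g387, another factor of the large subunit, had 208, 111 and 121 TPM in the 48 h libraries and 76.3, 87.5 and 92.2 TPM in those of 0 h in the strain labelled ΔAorlmA. In WT it had 229, 199 and 264 TPM at 48 h, beside 36.2, 27.5 and 29.5 TPM at 0 h (interaction -2.13, adjusted p = 0.0195). The nucleolar GTPase gene NOG1, AOL_s00076g264, had an interaction of -1.93 (adjusted p = 0.0441) and rose in both strains.

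Ribosome assembly genes outside the keyword list were also among the genes named, for their large negative estimates or as the called member of another list, so their direction follows from that choice. They were NOP2, AOL_s00215g270, a methyltransferase of ribosomal RNA, with an interaction of -2.66, and KRI1, AOL_s00006g258, a small subunit assembly factor in yeast, with -2.87. Others, named from their KEGG entries, were the RRP9-type WD repeat gene AOL_s00054g834, part of the U3 particle that guides the first cuts, with -2.82, and the UTP12-type gene AOL_s00007g187 with -2.24. The helicase gene DRS1, AOL_s00097g477, had -2.84. Each of these 5 rose in WT and was not called over 48 h in the strain labelled ΔAorlmA. KRI1 can stand for them: it had 131, 43.2 and 65.97 TPM in the 48 h libraries and 49.5, 54.8 and 66.8 TPM in those of 0 h in the strain labelled ΔAorlmA, where only the first library of 48 h stood apart. Its WT levels were 142, 125.31 and 119 TPM at 48 h, beside 13.3, 10.9 and 14.9 TPM at 0 h. The WD repeat gene AOL_s00043g741, annotated as jip5, was the single gene with a lower response that kept its call in all 23 settings. It had 79.1, 91.96 and 87.4 TPM in the 48 h libraries and 58.1, 58.4 and 97.8 TPM in those of 0 h in the strain labelled ΔAorlmA. WT stood at 127, 111 and 98.6 TPM at 48 h, beside 15.4, 15.8 and 21.1 TPM at 0 h (interaction -2.32, adjusted p = 0.0183).

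Proteins of the ribosome itself did not pass for the interaction in the main setting. Of 81 genes on the cytosolic ribosome list 0 rose in the strain labelled ΔAorlmA and 73 in WT (13% and 17.6% of all genes tested). At 48 h 64 were lower in the strain labelled ΔAorlmA (14.7% of all genes tested). For the interaction 1 was called, the helicase DRS1, which is no ribosomal protein. Their median interaction was -0.89. The sums were 95249, 47089 and 60358 TPM after 48 h and 70854, 52827 and 41700.4 TPM at 0 h in the strain labelled ΔAorlmA. They were 119867, 136636 and 139238 TPM after 48 h and 58644, 53796 and 75089.5 TPM at 0 h in WT. At 48 h every WT library lay above every library labelled ΔAorlmA, while at 0 h the strains overlapped. Without the first libraries labelled ΔAorlmA, 9 of the 81 were called lower (4.21% of all genes tested in that fit). The 56 genes for mitochondrial ribosomal proteins had 0 calls and a median of -0.44. Without the first libraries labelled ΔAorlmA, 9 of the 56 were called lower (again 4.21% of all genes tested). With median-of-ratios scaling 2 were called lower and with quantile normalization 1 (2.3% of all genes tested in either). The chaperone SSB1, AOL_s00007g116, which sits on the ribosome and folds new chains, was called (interaction -1.52, adjusted p = 0.0426) and had 1685, 968 and 1276 TPM in the 48 h libraries and 773, 842 and 977 TPM in those of 0 h in the strain labelled ΔAorlmA. WT values were 1247, 1728 and 1734 TPM at 48 h, beside 427, 364 and 311 TPM at 0 h.

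A wall synthase and a chromatin gene were among the others with a lower response. On the beta-glucan list 3 of 46 genes had a higher response and FKS1 alone a lower one (8.7% called, against 4.43% of all genes tested). With median-of-ratios scaling 1 was called higher and with quantile normalization 0, beside 1 lower in either. The higher call with the lowest p, AOL_s00080g161, is annotated as an endo-beta-1,4-glucanase with a cellulose binding domain. It reached 3.41 TPM at most and passed the filter only through WT at 0 h, so its p is no support apart from that choice. The list median of 0.34 was -0.06 with median-of-ratios scaling and -0.13 with quantile normalization. FKS1, AOL_s00054g491, the synthase of the wall polymer beta-1,3-glucan, had 337, 255 and 289.7 TPM in the 48 h libraries and 512, 285 and 394 TPM in those of 0 h in the strain labelled ΔAorlmA. WT had 256, 250.1 and 192 TPM at 48 h, beside 77.6, 69.2 and 67.8 TPM at 0 h. WT at 0 h was the low group, the strains overlapped at 48 h, and the gene rose in WT by 1.68 and was not called in the strain labelled ΔAorlmA (interaction -2.08, SE 0.36, adjusted p = 0.0195). A glucan endo-1,6-beta-glucosidase gene, AOL_s00043g294, whose enzyme cuts another wall glucan, followed it with an interaction of -2.27 (adjusted p = 0.0299). SET1, AOL_s00054g887, the methyltransferase for lysine 4 of histone H3, took another course: it had 26.1, 24.1 and 31.4 TPM in the 48 h libraries and 93.01, 170.2 and 169 TPM in those of 0 h in the strain labelled ΔAorlmA. WT levels came to 25.5, 18.3 and 12.2 TPM at 48 h, beside 16.7, 14.5 and 9.99 TPM at 0 h. It was high in the strain labelled ΔAorlmA at 0 h and fell there by 2.32, with an estimate of 0.39 in WT (adjusted p = 0.361; interaction -2.71, adjusted p = 0.0195).

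A pair of tyrosinase genes with consecutive locus tags, whose enzymes oxidise phenols on the way to melanin, also had lower responses. AOL_s00083g37 had 19.97, 30.3 and 38.6 TPM in the 48 h libraries and 82.9, 76.2 and 171 TPM in those of 0 h in the strain labelled ΔAorlmA. In WT the levels were 44.5, 31.5 and 31.1 TPM at 48 h, beside 16.4, 22.2 and 7.07 TPM at 0 h. It fell in the strain labelled ΔAorlmA and rose in WT, the single gene with a lower response that changed in opposite directions (interaction -3.09, adjusted p = 0.022). Its neighbour AOL_s00083g38 had an interaction of -2.84 (adjusted p = 0.039). The genes are similar by annotation, and how reads shared by near copies were counted was not given in the sources used here. AOL_s00004g267, a transporter of the ABC G family, was 1 of the 8 genes that differed in the same direction at both times: it had 374, 452 and 1153 TPM in the 48 h libraries and 1104, 877 and 2079 TPM in those of 0 h in the strain labelled ΔAorlmA. WT had 196, 128 and 146 TPM at 48 h, beside 75.5, 46.8 and 21.7 TPM at 0 h. It was far above WT at both times, and it rose in WT (interaction -2.95, adjusted p = 0.0373).

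In 63 genes (0.673% of those tested) the strains differed at 48 h and in their response but were not called at 0 h. The strain labelled ΔAorlmA was higher at 48 h in 48 of them and lower in 15. Their median strain difference was 1.71 at 48 h and 0.59 at 0 h in size, so a lack of a call at 0 h does not show equal levels. They are part of 1014 genes called at 48 h and not at 0 h, and for the rest of those the interaction was not called, so a change in the strain difference was not shown. The 63 became 488 without the first libraries labelled ΔAorlmA and 1 without the third WT library of 48 h. The other fits without 1 library gave 334, 37 and 12 without those labelled ΔAorlmA at 48 h, 76, 76 and 20 without those of 0 h, 38 and 9 without the first and second WT library of 48 h, and 31, 4 and 25 without those of WT at 0 h.

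Some of these genes were near 0 in most libraries outside the strain labelled ΔAorlmA at 48 h. AOL_s00076g259, unannotated and named after its values were seen because it had the lowest adjusted p of all, had 7.10, 8.90 and 10.3 TPM there and was listed at 0 in all 9 other libraries (interaction 3.27, adjusted p = 0.000364). It passed the filter on low values through that group alone, and its p rests on groups without spread. No fold is given against groups at 0. AOL_s00078g525, with an acetyltransferase domain of the GNAT type, had 23.7, 10.3 and 20.2 TPM in the 48 h libraries and 1.49, 0.11 and 0.55 TPM in those of 0 h in the strain labelled ΔAorlmA. In WT there were 0.35, 0.90 and 0.52 TPM at 48 h, beside 0, 0.47 and 0.18 TPM at 0 h. It rose without overlap in the strain labelled ΔAorlmA (interaction 3.09, adjusted p = 0.0189). This gene, too, passed the filter only through that strain at 48 h, so its p is no support apart from that choice. AOL_s00081g143, with a galactolipid synthase domain, had 31.8, 23.8 and 34.9 TPM in the 48 h libraries and 11.04, 0.71 and 0.61 TPM in those of 0 h in the strain labelled ΔAorlmA. WT reached 0.40, 0.56 and 0 TPM at 48 h, beside 0.67, 0.89 and 1.14 TPM at 0 h. Its first library labelled ΔAorlmA at 0 h was already raised, and its call (interaction 3.80, adjusted p = 0.0295) was lost under quantile normalization. The same limit of the filter holds for this gene.

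Genes of secretion, the cytoskeleton and carbon control were in the same class. The syntaxin gene SSO2, AOL_s00215g878, a membrane fusion protein of secretion, had 13.3, 3.56 and 11.6 TPM in the 48 h libraries and 1.76, 2.76 and 2.50 TPM in those of 0 h in the strain labelled ΔAorlmA. WT stood at 0.76, 0.58 and 0.96 TPM at 48 h, beside 1.49, 2.70 and 1.76 TPM at 0 h (interaction 2.24, adjusted p = 0.0391). Its levels at 0 h overlapped between the strains, and at 48 h they did not. Cofilin, AOL_s00006g152, which severs actin filaments, and creA, AOL_s00054g35, which in Aspergillus represses the use of other carbon sources while glucose lasts, were chosen after their values were seen. Cofilin had 10.8, 25.4 and 16.6 TPM in the 48 h libraries and 4, 5.85 and 6.55 TPM in those of 0 h in the strain labelled ΔAorlmA. WT values were 4.83, 5.13 and 3.33 TPM at 48 h, beside 7.58, 12.7 and 9.69 TPM at 0 h. It rose in the strain labelled ΔAorlmA and fell in WT (interaction 2.48, adjusted p = 0.0222, lost under quantile normalization). The creA gene had 91.3, 132 and 104 TPM in the 48 h libraries and 97.3, 173 and 91.9 TPM in those of 0 h in the strain labelled ΔAorlmA. WT levels came to 48.9, 49.6 and 34.9 TPM at 48 h, beside 274, 207 and 135 TPM at 0 h. It fell in WT and was not called in the strain labelled ΔAorlmA (interaction 2.04, adjusted p = 0.0301, lost under median-of-ratios scaling).

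Others that separated at 48 h by a fall in WT or by a lower level in the strain labelled ΔAorlmA included AOL_s00169g171, with a domain of the endonuclease and phosphatase family, which had 34.4, 41.97 and 19.6 TPM in the 48 h libraries and 14.3, 14.1 and 24.7 TPM in those of 0 h in the strain labelled ΔAorlmA. In WT the levels were 8.72, 3.84 and 3 TPM at 48 h, beside 16.6, 19.4 and 26.6 TPM at 0 h (interaction 2.70, adjusted p = 0.0254). AOL_s00185g3, with a domain of unknown function (DUF3129), rose in the strain labelled ΔAorlmA to 11.9, 32.1 and 9.02 TPM at 48 h, against 2.73, 1.30 and 2.79 TPM at 0 h (interaction 2.56, adjusted p = 0.0343). Among the 15 lower genes, AOL_s00083g253, with a glycosyl transferase domain, had the largest estimate (-3.69, adjusted p = 0.0392), lost under both other scalings, with 6.44, 6.67 and 6.51 TPM in the 48 h libraries and 0.40, 1.51 and 10.8 TPM in those of 0 h in the strain labelled ΔAorlmA. WT had 21.9, 35.8 and 58.5 TPM at 48 h, beside 0, 1.11 and 0.06 TPM at 0 h. Fibrillarin, AOL_s00097g410, which methylates ribosomal RNA and was chosen after its values were seen, had 457, 222 and 293 TPM in the 48 h libraries and 231, 230.04 and 221 TPM in those of 0 h in the strain labelled ΔAorlmA. In WT there were 584, 588 and 589.8 TPM at 48 h, beside 168, 142 and 136 TPM at 0 h (interaction -1.53, adjusted p = 0.0369).

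Gene lists tied to nematode capture and digestion held small numbers of calls. Their shares lay above that of all genes tested, for the other secreted peptidases by little. Subtilisin-like proteases, which digest the nematode cuticle, had 3 called with a higher response of 26 tested (11.5%, against 4.43% of all genes). Among them AOL_s00007g170 had 0.59, 0.95 and 0.86 TPM in the 48 h libraries and 1.33, 2.67 and 1.79 TPM in those of 0 h in the strain labelled ΔAorlmA. WT had 0.35, 0.21 and 0.17 TPM at 48 h, beside 6.78, 7.93 and 6.09 TPM at 0 h, with an interaction of 1.99 (adjusted p = 0.0195). Other secreted peptidases had 3 of 52 (5.77%), led by the carboxypeptidase AOL_s00007g290 at 2.91 (adjusted p = 0.0195). Lectins and other sticky surface proteins had 5 of 62 (8.06%), with a list median of 0.31 that turned to -0.04 under median-of-ratios scaling and -0.10 under quantile normalization. All 11 of these calls were of a higher response (3.23% of all genes tested). With median-of-ratios scaling 3, 2 and 1 genes of the 3 lists were called higher (1.37% of all genes tested). With quantile normalization it was 1 on each list (1.23%). Without the first libraries labelled ΔAorlmA, 3 of 26, 10 of 52 and 8 of 62 were called higher (10.2% of all genes tested in that fit). There 1 subtilisin-like gene was called lower.

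Lists for uptake, wall degradation and signalling held calls at shares that ran from below that of all genes tested to above it. Sugar transporters had 3 of 66 called with a higher response (4.55%, against 3.23% of all genes tested) and a list median of 0.93, which was 0.55 with median-of-ratios scaling and 0.40 with quantile normalization. Without the first libraries labelled ΔAorlmA, 14 sugar transporters were called higher and 2 lower (10.2% and 4.21% of all genes tested in that fit). Transporters of amino acids, peptides and other nitrogen sources had 3 of 58 called higher (5.17%, against 3.23%), each of which rose in the strain labelled ΔAorlmA. Secondary metabolism genes had 6 of 43 called higher (14%, against 3.23%), 4 of them cytochromes P450. Under median-of-ratios scaling and under quantile normalization 2 were called higher (1.37% and 1.23% of all genes tested). The keyword list of plant wall degrading enzymes had 4 higher and 1 lower of 60 (8.33% called, against 4.43% of all genes tested). The lower one is the glucan endo-1,6-beta-glucosidase gene AOL_s00043g294 described above, placed there by keyword. Those called higher include the arabinofuranosidase AOL_s00215g873 at 2.69 (adjusted p = 0.0195). With median-of-ratios scaling 2 were higher and 1 lower (1.37% and 2.3% of all genes tested). With quantile normalization it was 1 and 1 (1.23% and 2.3%). Zinc cluster transcription factors had 4 higher and 1 lower of 110 (4.55%, near the 4.43% of all genes tested), with AOL_s00004g621 at 2.11 and AOL_s00215g460 at -2.56. The autophagy kinase ATG1, AOL_s00076g234, was the single call among 30 autophagy genes (3.33%, against 4.43% of all genes tested). It had 8.81, 14.7 and 11.3 TPM in the 48 h libraries and 11.4, 9.46 and 7.99 TPM in those of 0 h in the strain labelled ΔAorlmA. WT reached 11.1, 7.20 and 5.53 TPM at 48 h, beside 28.7, 27.6 and 28.2 TPM at 0 h (interaction 1.99, adjusted p = 0.0271).

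Of 25 fatty acid breakdown genes 11 rose and 1 fell in the strain labelled ΔAorlmA (13% and 8.52% of all genes tested), against 4 and 5 in WT (17.6% and 28.7%). In the strain labelled ΔAorlmA these counts were 6 and 2 with median-of-ratios scaling and 3 and 2 with quantile normalization. At 48 h 9 were higher and 0 lower in the strain labelled ΔAorlmA (9.2% and 14.7% of all genes tested), also under both other scalings. The interaction was called for 2 (8%, against 4.43% of all genes tested). Of these, the oxidoreductase AOL_s00004g288 was placed on the list by keyword. Its KEGG entry is fabG, and its domains include an enoyl-(acyl carrier protein) reductase and a 3-hydroxyacyl-CoA dehydrogenase. Its annotation thus does not settle a part in fatty acid breakdown. It had 34.95, 72.1 and 52.3 TPM in the 48 h libraries and 14.2, 19.6 and 34.5 TPM in those of 0 h in the strain labelled ΔAorlmA. WT stood at 14.6, 16.5 and 16.7 TPM at 48 h, beside 28.7, 33.2 and 30.1 TPM at 0 h (interaction 2.12, adjusted p = 0.0324). The list's median interaction was 0.61, and it was 0.20 with median-of-ratios scaling and 0.45 with quantile normalization, where neither of the calls remained.

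**Figure D5:**
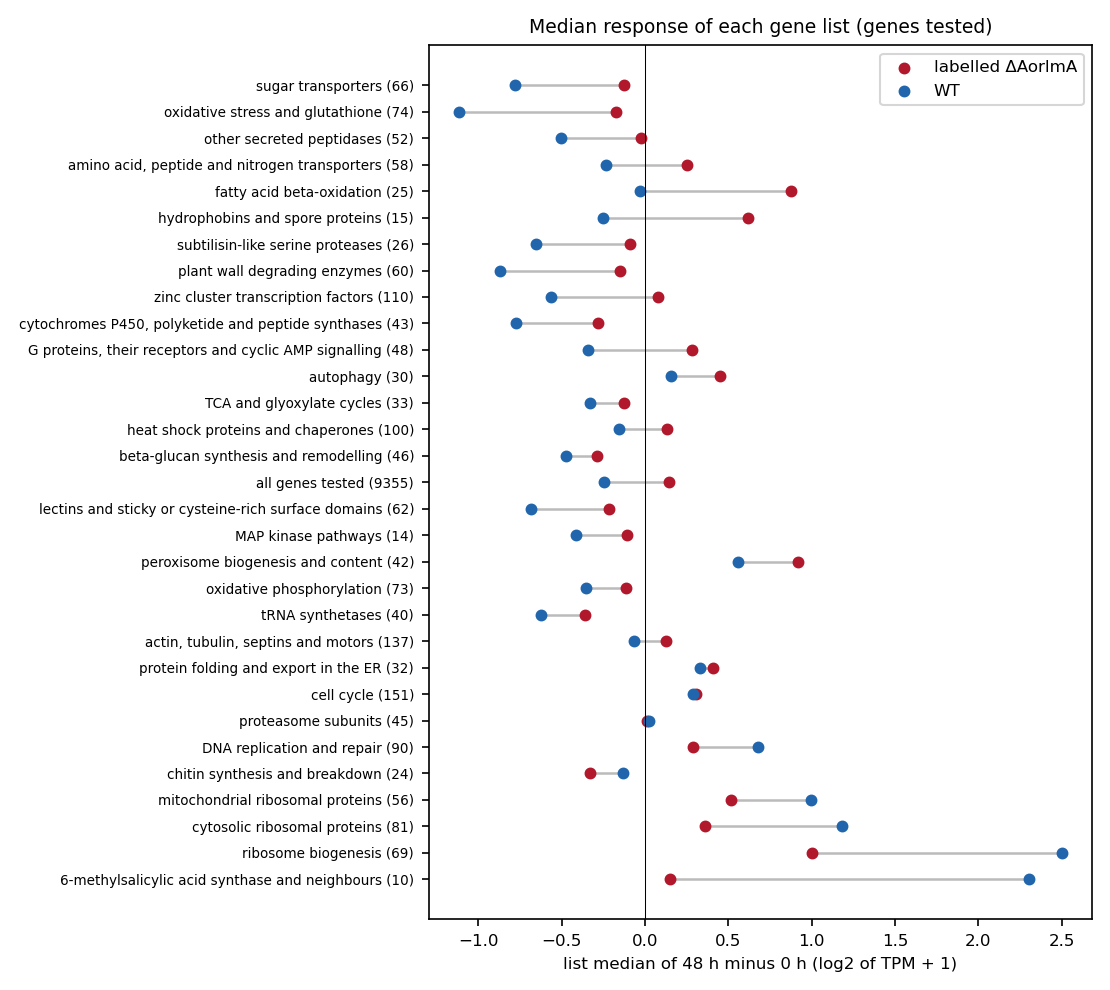
Median change over 48 h (log2 of TPM + 1) of each gene list with at least 10 genes tested, in the strain labelled ΔAorlmA and in WT, ordered by the median interaction, with the number of genes tested in brackets. Ribosome biogenesis is at 1.00 in the strain labelled ΔAorlmA and 2.50 in WT, and oxidative stress, sugar transport and fatty acid breakdown have a higher median in the strain labelled ΔAorlmA than in WT.

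A group of adjacent genes with large strain differences did not pass for the interaction. The 10 genes around the 6-methylsalicylic acid synthase, AOL_s00215g274 to AOL_s00215g283, some of which make a polyketide, had 0 calls and a median of -1.81, which ran from -2.50 to -0.82 without 1 library. Without the first libraries labelled ΔAorlmA, 1 was called lower. At 48 h 9 of the 10 were higher in the strain labelled ΔAorlmA (9.2% of all genes tested), and at 0 h also 9 (8.87%). The lowest adjusted p, 0.0756, belonged to the cytochrome P450 gene AOL_s00215g278, which had 92.7, 774 and 623 TPM in the 48 h libraries and 226, 261 and 855 TPM in those of 0 h in the strain labelled ΔAorlmA. WT values were 18.2, 54.7 and 61.9 TPM at 48 h, beside 2.23, 4 and 3.06 TPM at 0 h. It rose in WT and had an interaction of -3.39 with an SE of 1.04. Lists for MAP kinase pathways, chitin, peroxisomes, the proteasome, oxidative phosphorylation, protein folding in the endoplasmic reticulum, tRNA synthetases, hydrophobins and spore proteins also held 0 calls. In the MAP kinase list the closest was PBS2, AOL_s00097g443, the kinase that activates the osmotic stress MAP kinase in yeast, with -1.73 (adjusted p = 0.0806). Its levels were 19.1, 51.98 and 46.3 TPM in the 48 h libraries and 119, 123.29 and 181 TPM in those of 0 h in the strain labelled ΔAorlmA. WT levels came to 18.8, 15.5 and 10.4 TPM at 48 h, beside 20.9, 18.3 and 12.02 TPM at 0 h.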

How the data were processed

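RNA from hyphae was sequenced with Illumina libraries, per the labels' protocols. The authors deposited TPM values per gene and library and a table of FPKM values with Swiss-Prot, KEGG and Pfam annotations. Read counts per library (48.5 to 61.1 M clean reads) and the base composition and quality (47.9 to 48.4 percent GC, 94.3 to 94.7 percent of bases at Q30) come from the authors' deposited statistics. The deposited table named for raw counts holds correlations between libraries, so no count test was run and the planned test for TPM was used. Aligner, quantifier and genome build were not given in the sources used here, and 8 columns of group means were left out. A value of 0 means that a gene is listed at 0. Of 11479 genes, all of whose names are RefSeq locus tags, 7738 were annotated.

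From these values, a gene was tested if 3 or more libraries had 1 TPM or more. One limma model (limma 3.58.1 in R 4.3.3, eBayes with a variance trend) was fitted on log2(TPM + 1) over all 12 libraries, with a mean per group. Groups came from the genotype and time labels. Contrasts were the interaction, the strains at either time and the times in either strain, all two-sided, adjusted by Benjamini-Hochberg across every gene tested, with a call at an adjusted p below 0.05. Fold changes on this scale understate the change of low genes. The fit was checked on simulated data. A gene was sorted as already changed if called at 0 h, and as differing after induction alone if called at 48 h and for the interaction but not at 0 h. Alternatives were other pseudocounts (0.1 and 5), filters, scalings, FPKM, array weights, a robust fit, a replicate block and leaving out libraries, 23 in all. Replicate numbers were not taken to pair the samples.

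The 31 gene lists were made from annotation keywords, and the comparison, the members and the lists were chosen with earlier results of these data known. Keyword boundaries were repaired after a first match took in unrelated genes. Lists are described by counts and medians, with no test. Genes named are the MADS-box genes, annotated called genes with at least 5 TPM in the highest group and the largest estimates (12 each way), the 10 annotated genes with the lowest adjusted p, the called member of each list with the lowest p each way (or the member closest to passing), the 6 annotated genes with the largest strain difference in either class (at 48 h or at 0 h), and at most 2 unannotated genes each way. Another 6, and the neighbours and 1 unannotated gene in the closing section, were chosen after their values were seen and are marked so.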

Additional observations from a re-analysis of the deposited data

Results flagged for a closer look

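The responses of the strains differed for 414 genes by a test of the difference itself, the interaction in the limma fit. The 65 of these that are named here are listed with their interaction on the log2 scale, labelled ΔAorlmA minus WT, grouped by how either strain changed over 48 h. No group of 3 libraries was screened for a single library far from the others, since 3 are too few. Among genes that fell in WT without a call in the strain labelled ΔAorlmA, the interaction was 6.13 for AOL_s00054g904, 5.82 for AOL_s00188g307, 5.46 for AOL_s00079g106, 5.30 for AOL_s00007g278, 5.11 for AOL_s00169g35 and 4.81 for AOL_s00210g255. Next came 4.18 for AOL_s00043g392, 4.10 for AOL_s00054g267, 4.07 for AOL_s00006g571, 3.89 for AOL_s00081g1, 3.88 for AOL_s00215g29 and 3.63 for AOL_s00054g163. Then followed 3.16 for AOL_s00081g319, 2.91 for AOL_s00007g290, 2.71 for AOL_s00080g242, 2.70 for AOL_s00169g171, 2.69 for AOL_s00215g873 and 2.68 for AOL_s00169g233. After these came 2.68 for AOL_s00007g292, 2.21 for AOL_s00081g318, 2.12 for AOL_s00004g91, 2.11 for AOL_s00004g621, 2.04 for AOL_s00054g35 and 1.99 for AOL_s00007g170. Lower values were 1.99 for AOL_s00076g234, 1.72 for AOL_s00083g173 and 1.45 for AOL_s00080g161. The last of these, like AOL_s00169g233, passed the filter on low values only through WT at 0 h. Among genes that rose in WT without a call in the strain labelled ΔAorlmA, the interaction was -1.52 for AOL_s00007g116, -1.53 for AOL_s00097g410, -2.08 for AOL_s00054g491, -2.13 for AOL_s00004g387, -2.24 for AOL_s00007g187 and -2.27 for AOL_s00043g294. Next came -2.32 for AOL_s00043g741, -2.56 for AOL_s00215g460, -2.66 for AOL_s00215g270, -2.82 for AOL_s00054g834, -2.84 for AOL_s00083g38 and -2.84 for AOL_s00097g477. Then followed -2.87 for AOL_s00006g258, -2.95 for AOL_s00004g267, -3.18 for AOL_s00054g271, -3.69 for AOL_s00083g253, -3.76 for AOL_s00173g350 and -4.22 for AOL_s00004g22. Among genes that rose in the strain labelled ΔAorlmA without a call in WT, the interaction was 3.80 for AOL_s00081g143, 3.27 for AOL_s00076g259, 3.09 for AOL_s00078g525, 2.92 for AOL_s00079g255, 2.56 for AOL_s00185g3 and 2.37 for AOL_s00081g301. Next came 2.29 for AOL_s00054g285 and 2.24 for AOL_s00215g878. Among genes that fell in the strain labelled ΔAorlmA without a call in WT, the interaction was -2.71 for AOL_s00054g887 and -2.72 for AOL_s00083g258. Among genes that changed in the same direction in both strains, the interaction was 3.43 for AOL_s00081g77, 1.94 for AOL_s00004g332, -1.93 for AOL_s00076g264 and -2.65 for AOL_s00215g251. Among genes that changed in opposite directions, the interaction was 4.48 for AOL_s00193g183, 4.35 for AOL_s00043g257, 2.74 for AOL_s00075g206, 2.48 for AOL_s00006g152, 2.12 for AOL_s00004g288 and -3.09 for AOL_s00083g37.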

How the results depend on the processing

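The number of interaction calls, 414 in the main setting, was 260 with a pseudocount of 0.1 TPM, 605 with 5 TPM, 484 without a filter, 308 with a filter of 5 TPM, 343 with median-of-ratios scaling, 330 with quantile normalization, 406 with FPKM, 403 with a robust fit, 2056 with array weights and 1349 without the first libraries labelled ΔAorlmA. Leaving out 1 library gave 17 to 876 calls. Genes that differ only after induction numbered 63, and 39 with a pseudocount of 0.1 TPM, 809 with array weights, 488 without the first libraries labelled ΔAorlmA and 1 to 334 without 1 library. With median-of-ratios scaling they numbered 67, of which 22 were among the 63, and with quantile normalization 61, of which 27 were. Genes already changed at 0 h numbered 3990, and 2374 with median-of-ratios scaling and 2096 to 4428 without 1 library. The cause of these shifts was not tested. Every one of the 414 kept its sign in all of the 23 settings that tested it, and 14 kept the call. The settings reuse the libraries by which the genes were chosen, so a kept sign is no further support. The AOL_s00078g125 interaction, -0.13 and not called, turned to 0.15 without the third library labelled ΔAorlmA at 0 h and to 0.06 without the second WT library of 48 h, and lay between -0.44 and 0.15 without 1 library. Of the 65 called genes named here, 54 stayed called with median-of-ratios scaling, 47 with quantile normalization and 62 without the first libraries labelled ΔAorlmA, and 10 in all settings. AOL_s00007g278 lost its call in 20 settings.

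A fit with the replicate number as a block gave 348 interaction calls, 309 of them among the 414. Same-numbered libraries deviated together (r over 0.1) in 5 of 18 pairs, and 2 of 12 libraries correlated best with their own number, so the pairing is a shared number alone. Of the 65 called genes named, 59 stayed called under the block, and 2 of the 10 genes around the 6-methylsalicylic acid synthase were called lower. Reads per gene were not used here, and with a median SE of 0.49 on the log2 scale the smallest interaction called was 1.15.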

Other observations

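Neighbours of genes called for the interaction were called the same way at a higher share than all genes tested, though most were not called. Neighbours were judged by consecutive locus tags, which follow the order of gene starts in the RefSeq table. Of 510 tested neighbours of genes with a higher response, 52 also had a higher response (10.2%, against 3.23% of all genes tested), in 26 adjacent pairs. Of 192 tested neighbours of genes with a lower response, 10 also had a lower one (5.21%, against 1.2%), in 5 pairs. The pairs with a lower response include the tyrosinase genes AOL_s00083g37 and AOL_s00083g38 and the ribosome assembly genes esf1, AOL_s00004g536, and NOP53, AOL_s00004g537. Among the pairs with a higher response are the glucose transporter AOL_s00054g267 with a ubiquitin-conjugating enzyme gene, AOL_s00054g266 (interactions 4.10 and 2.54), and the cytochrome P450 AOL_s00079g255 with the unannotated AOL_s00079g256 (2.92 and 3.97). Whether neighbouring genes share reads could not be seen from the values, and its part was not tested.

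The median level in the highest group was 23.0 TPM for the 302 genes with a higher response, 157 TPM for the 112 with a lower one and 49.2 TPM over all genes tested. No annotation was given for 29.1% of the 302, 11.6% of the 112 and 24.9% of all genes tested. Among the unannotated, AOL_s00079g308, chosen like the neighbours above after its values were seen, kept its call in all settings and had 517, 122.58 and 375 TPM in the 48 h libraries and 13.2, 15.8 and 16.1 TPM in those of 0 h in the strain labelled ΔAorlmA. In WT it had 0.20, 0.26 and 0.05 TPM at 48 h, beside 0, 1.09 and 0.68 TPM at 0 h. Its interaction was 4.56 (adjusted p = 0.011). It rose in the strain labelled ΔAorlmA and was above WT at both times without overlap.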
